A study of Arabidopsis thaliana with 12 samples.

Results

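Open sites centred in 5′ UTRs were the Tn5 hypersensitive sites (THSs) whose midpoint lay in an exon of a protein-coding transcript, upstream of that transcript's coding start, and in no coding sequence of any gene. By this rule 2556 of the 23226 THSs on the 5 nuclear chromosomes of Arabidopsis thaliana were chosen, which is 11.0% (95% Wilson interval 10.6% to 11.4%). A further 51 THSs had a midpoint in a 5′ UTR that was also coding sequence of another transcript and were left out. The rule used annotation and midpoints only, so it did not use the lengths, motifs or gene groups given below. Positions in the leader, leader lengths and the place of the midpoint in other transcripts are bound by it.

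ATAC-seq marks open DNA by the insertions of the transposase Tn5, and it was performed on whole seedlings of Col-0 wild type (WT) and 5 Polycomb group mutants at 10 days after germination, with 2 replicates of each genotype and 12 samples in all. The mutants were bmi1abc (triple) and ring1ab (double), affected in RING-finger proteins that ubiquitinate histone H2A, clf28swn7 (double), affected in the histone methyltransferases CLF and SWN, and the single mutants emf1-2 and lhp1, affected in the plant Polycomb proteins EMF1 and LHP1. All 6 genotypes were grown alike on agar plates, and whole seedlings mix many cell types. The THSs form a single list merged over the genotypes, with neither a signal nor a genotype, so no genotype was compared, no value below has replicates, and the read depth behind a region is not known. Intervals cover the counting error over regions, genes or bases only, and regions and genes are not independent samples.

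The 5′ UTR, called the leader below, is the part of the mRNA that the small ribosomal subunit scans before it reaches the coding start. An ATG in the leader can open an upstream open reading frame (uORF), which lowers or regulates translation of the main protein. At the DNA level the same bases lie next to the transcription start, where nucleosome-free promoters and the first nucleosome meet, and plant leaders can also hold binding sites for transcription factors. A gene may further have several annotated starts, so that the leader of 1 transcript is the promoter of another.

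The sequences below show what the results on motifs turn on. Each is 30 bases of genome sequence of assembly TAIR10.1, read 5′ to 3′ along the mRNA's sense strand, and capitals mark the matches to the motif. The photosystem and ribosomal genes and the genes PIF4 to HAI1 were picked for display after their values were seen. In photosystem and light-harvesting genes the motifs were the G-box (CACGTG), which bZIP and bHLH factors bind, and the I-box (GATAAG or CTTATC) of light-regulated promoters. The G-box is shown in PSBP-1, a protein of the oxygen-evolving complex, LHCA3, an antenna protein, and PSAH-1, a subunit of photosystem I. The I-box is shown in the antenna proteins LHCB2.1 and LHCB4.1.
PSBP-1 (chr1:2047729-2047758, plus strand): aagcgtatctgcCACGTGgcacaatacaac
LHCA3 (chr1:22699950-22699979, plus strand): aacttatattgcCACGTGgacagatatagt
PSAH-1 (chr3:5469559-5469588, minus strand): cctactagattcCACGTGgcattttccaag
LHCB2.1 (chr2:1824359-1824388, minus strand): ctcacactctctCTTATCtcctttcctttc
LHCB4.1 (chr5:208894-208923, plus strand): cagagtttaataGATAAGattagtaatcct

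In ribosomal protein genes the motifs were Site II (TGGGCC or GGCCCA), bound by TCP factors, and the telo-box (AAACCCTA or TAGGGTTT), an element of genes for the translation machinery that resembles the telomere repeat. PGY1 and RPL18 encode proteins of the large ribosomal subunit and hold both motifs in the open leader. The 30 bases of AT5G08180, whose product is of the L7Ae family, hold Site II in both orientations.
PGY1, Site II (chr2:11764896-11764925, minus strand): atgatcacaagcGGCCCActaatataacaa
PGY1, telo-box (chr2:11764850-11764879, minus strand): atcaattccccTAGGGTTTtagtctcttcc
RPL18, Site II (chr3:1621354-1621383, plus strand): tcttatattcaaGGCCCAtctcgtgaagga
RPL18, telo-box (chr3:1621435-1621464, plus strand): agttggtataaAAACCCTAgcatcagtatt
AT5G08180, Site II (chr5:2633568-2633597, minus strand): agtctgtatgaaGGCCCAaataatTGGGCC

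Among signalling genes, PIF4 and PIF5 encode bHLH factors that promote growth and are degraded in light, MYC2 encodes the bHLH factor of jasmonate responses, JAZ1 its repressor, and HAI1 a protein phosphatase that restrains abscisic acid signalling. All G-boxes shown lie inside the open leader of their own gene.
PIF4, G-box (chr2:17886328-17886357, plus strand): cccagaacttgcCACGTGtcgttcatttca
PIF5, G-box (chr3:21830552-21830581, minus strand): ctgacaattcgcCACGTGtcggtcatcctg
PIF4, I-box (chr2:17886206-17886235, plus strand): agagtttttttaGATAAGgtacaGATAAGa
PIF5, I-box (chr3:21830677-21830706, minus strand): aagagtgttgcaGATAAGgtacagatcaga
MYC2, G-box (chr1:11801211-11801240, minus strand): gagcgtgtgataCACGTGcgaccaaacagc
JAZ1, G-box (chr1:6622017-6622046, plus strand): aacaaaataaaaCACGTGttttttatacca
HAI1, G-box (chr5:23896801-23896830, minus strand): aagtacgttttaCACGTGgacacaatcaac

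PIF4 and PIF5 are close relatives, and their open leaders held the motifs in the same order, the I-box first and the G-box after it. In PIF4 the I-box lay after 117 leader bases and the G-box after 239, and in PIF5 after 143 and 268. The letters were equal at 20 of 30 positions around the G-box, with a shared run of 11 bases, and at 22 of 30 around the I-box, with a shared run of 15. Each run includes the motif itself. Around the G-box, PIF4 shared a run of 15 bases with the member of AFP2. PIF5 shared 12 with MHX and 11 with AFP2, so the run of 11 was not particular to this pair. Around the I-box only PIF4 and PIF5 were compared.

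The last set shows genes from among the members with the most matches to a motif in the 200 bp around their midpoint. VAMP711 encodes a SNARE protein of the vacuole, FUS12 a subunit of the COP9 signalosome, RBCS3B a small subunit of Rubisco and SEX1 the glucan, water dikinase of starch breakdown. The evening element (AAAATATC) is the motif of clock-controlled promoters. The stretches shown for VAMP711 and FUS12 run past the downstream end of the member.
VAMP711, GA repeat (chr4:15527762-15527791, minus strand): tggtTCTCTCTCTCTCTCTCTCTCTCTCtg
FUS12, GAA repeat (chr2:11522518-11522547, minus strand): cTTCTTCTTCtcTTCTTCTTCtcTTCTTCt
RBCS3B, I-box (chr5:15378477-15378506, minus strand): gtggtgcgtaccGATAAGggtgtcaacacc
SEX1, evening element (chr1:3590718-3590747, minus strand): tatataataagAAAATATCacccaaataaa

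Where the midpoints lay along the leader was measured first. They were densest at its 5′ end. The median midpoint stood 71 leader bases after the transcript start (95% interval 67 to 75, quartiles 29 and 145) and 219 bases before the coding start (213 to 224). Here and below, the transcript was the qualifying one with the most upstream start, unless another is named. In the first 50 bases 969 midpoints gave 857 per Mb of leader, between 50 and 100 bases 599 gave 610 per Mb, and between 100 and 150 bases 373 gave 469 per Mb. The density went on falling to 157 per Mb between 400 and 600 bases. Beyond it was higher again, at 240 per Mb between 600 and 1000 bases and 370 per Mb past 1000, but only 48 and 30 members stood there. For densities by distance and by leader exon, the leader bases were those of each gene's transcript with the most upstream start. This was not always the transcript of the member. The longest leader was 3972 bases among the members' transcripts and 3680 among those counted, so the far densities may be too high.

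**Figure D1:**
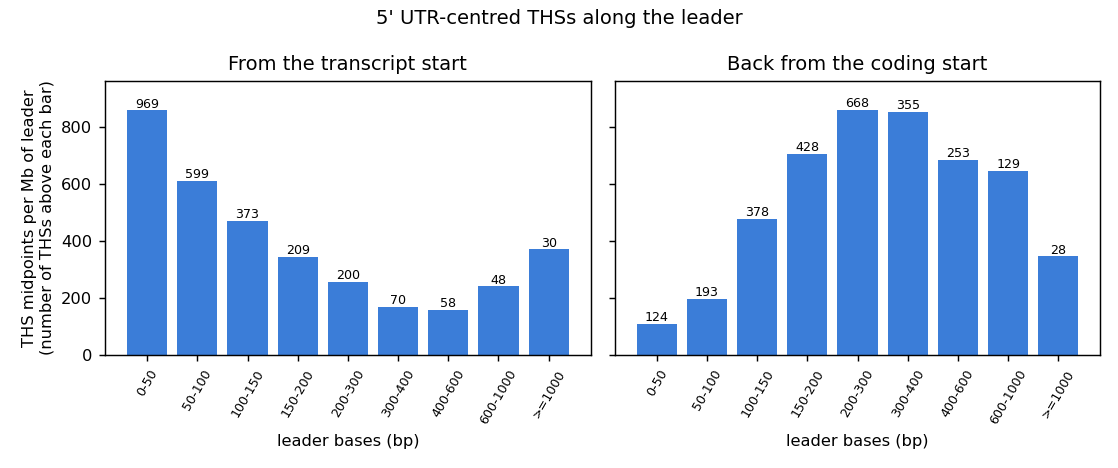
The bars give the number of 5′ UTR-centred THS midpoints per Mb of leader (vertical axis) by distance in leader bases, from the transcript start on the left and back from the coding start on the right, with the number of THSs above each bar. From the transcript start the density is highest in the first 50 bases (857 per Mb), and back from the coding start it is lowest in the last 50 (110 per Mb) and highest between 200 and 300 bases (859 per Mb).

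Counted back from the coding start, the density was 110 per Mb in the last 50 bases (124 members) and 196 per Mb in the 50 before, against 859 per Mb between 200 and 300 bases. In the 1380 members whose leader was at least 300 bases long, the leader was also cut into 5 equal parts. From the start to the coding sequence these held 554 midpoints (40.1%), 393 (28.5%), 254 (18.4%), 132 (9.57%) and 47 (3.41%), so the fall along the leader was also seen on this relative scale.

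For comparison, 2 other places of the midpoint were used. Core promoter THSs had their midpoint within 300 bp upstream of a protein-coding gene (5957 THSs), and coding-exon THSs had it in coding sequence (3114). Leader exons held 437 midpoints per Mb, core promoters 810, coding exons 92.5 and the whole genome 195. Introns between leader exons held 103 midpoints, or 92.0 per Mb, which is close to the coding exons. In leaders with an intron the first exons held 485 per Mb and the later exons 78.1. The introns were thus close to the later leader exons and not to the first ones. On the 5 chromosomes the members made up 10.4% to 11.6% of the THSs, and their density over leaders ran from 414 per Mb on chromosome 1 to 477 on chromosome 2.

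Most members reached past the annotated start. A total of 1382 (54.1%, 52.1% to 56.0%) spanned the transcript start and ended inside the leader, and their median length upstream of the start was 75 bp. Another 313 (12.2%) ran across the whole leader from upstream of the start into the coding sequence. These had short leaders, with a median of 161 bases. A group of 122 (4.77%) spanned the coding start only. The other 739 (28.9%, 27.2% to 30.7%) lay inside the leader or ran into an intron with neither end of the leader covered. They were shorter, with a median of 183 bp, and their leaders were longer, with a median of 440 bases. Of all bases in members, 71.1% were leader and 23.3% lay upstream of the start. The members that span the start are therefore open regions shared by promoter and leader, and 861 (33.7%) were clear of the start.

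The median length of a member was 236 bp (95% interval 227 to 242, quartiles 166 and 339), and the lengths ran from 5 to 1554 bp. Core promoter THSs were longer, at 293 bp (287 to 298), and coding-exon THSs shorter, at 154 bp (151 to 158). The intervals of the 3 groups did not overlap. Members under 200 bp, the length to which reads were extended in the peak calls, numbered 979 (38.3%), against 25.1% of core promoter and 66.1% of coding-exon THSs. The median gap from a member to the next THS was 1654 bp, and 35.1% had a neighbour within 1 kb, against 43.1% of all other THSs. Core promoter THSs stood farther apart, with a median gap of 2023 bp and 28.8% with a neighbour within 1 kb, and coding-exon THSs closer, with 44.4%.

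**Figure D2:**
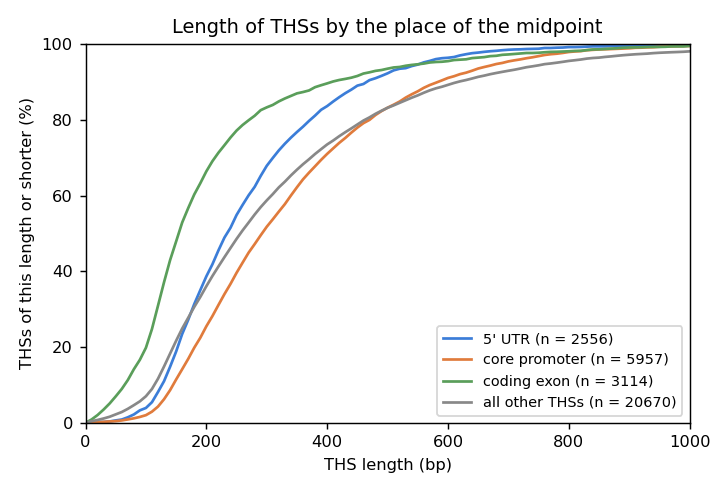
Each line gives the percentage of THSs (vertical axis) at or below a length in bp (horizontal axis, shown to 1000 bp) for THSs centred in 5′ UTRs, in core promoters, in coding exons, and for all THSs outside 5′ UTRs. The 5′ UTR line (median 236 bp) runs between the coding-exon line (154 bp) and the core promoter line (293 bp) over most of the range.

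The 10 longest members came from genes of varied function. The longest, of 1554 bp, stood at AT5G26731 (chr5:9294784-9296337), whose product is uncharacterized, and the second, of 1380 bp, at AT3G60290, a 2-oxoglutarate-dependent oxygenase. BTI1, a protein first named for binding the Agrobacterium protein VirB2, held one of 1205 bp, and CSY2, a citrate synthase, one of 1008 bp. Of these 10, all but the member of AT3G57450 spanned the transcript start. The 7 that also or only spanned the coding start were at AT5G26731, AT3G60290, AT2G15960, AT3G57450, AT5G07770, AT1G67856 and AT2G04378.

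The exons of the leader were then told apart. Nearly all members lay in the first leader exon, 2521 of 2556 (98.6%, 98.1% to 99.0%). An intron interrupted the leader of 566 members (22.1%), and of these 35 (6.18%) lay in a later exon, although later exons held 29.0% of the bases of all leaders with an intron. Per Mb, the first exons of such leaders held 485 midpoints and the later exons 78.1. JAZ1 was among the exceptions, with its 104-bp member (chr1:6621953-6622056) in leader exon 2. Genes with a leader intron held a member in 581 of 4431 cases (13.1%, 12.2% to 14.1%), and those without in 1977 of 19067 (10.4%, 9.94% to 10.8%). These shares do not allow for leader length, with which the share of genes also rose, as given next. Whether they differ at equal leader length was not tested.

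Genes with long leaders held members more often. The leader length of a gene, here and for the gene groups below, was that of the longest leader among its coding transcripts. Of 23586 protein-coding genes with a leader, 2561 held a member in it (10.9%, 10.5% to 11.3%). The share rose from 0.689% of genes with leaders under 50 bases to 5.61% from 100 to below 200 bases, 19.8% from 300 to below 500 bases and 35.5% (30.7% to 40.6%) at 1000 bases or more. A longer leader offers more bases, so the density per Mb of leader was also taken. It rose from 234 below 50 bases to 540 from 200 to below 300 and 520 from 300 to below 500, and was 353 from 500 to below 1000 and 288 from 1000 bases on. The median leader of genes with a member was 337 bases (328 to 346) against 179 (177 to 181) in genes without.

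**Figure D3:**
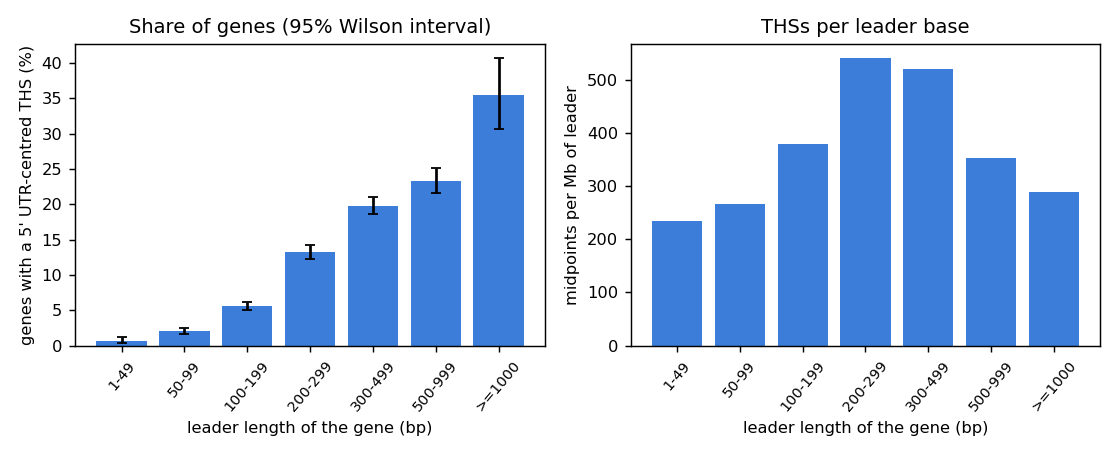
The left bars give the percentage of genes with a 5′ UTR-centred THS by the length in bp of the gene's longest leader, with 95% Wilson intervals. The right bars give the THS midpoints per Mb of leader in the same classes. The share of genes rises to 35.5% in the longest leaders, while the density per base is highest between 200 and 500 bases.

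A total of 19 genes held 2 members and 1 gene held more. This was GAD2, a glutamate decarboxylase that makes the signalling amino acid GABA, with 5 members on chromosome 1, of 222, 109, 457, 214 and 374 bp. The first was at chr1:24551816-24552037 and the last at chr1:24555010-24555383. Their midpoints stood 119, 599, 1022, 1372 and 1563 leader bases into annotated leaders of up to 3972 bases, and the first lay 77 bp upstream of a further annotated start. The members of 109 and 457 bp were 140 bp apart, and those of 457 and 214 bp were 15 bp apart.

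The 10 members farthest from the start by leader bases lay in unusually long annotated leaders. The midpoint of AT3G15920, a PX-domain protein, stood 2941 bases into a leader of 3264, and that of RDM1, a protein of RNA-directed DNA methylation, 2018 bases into 2152. TIL1, the catalytic subunit of DNA polymerase epsilon, and AAT1, an amino acid transporter, had theirs at 1732 and 1797 bases. In 9 of the 10 no other transcript of the gene started downstream of the midpoint. In the tenth, UKL4, a uridine kinase-like gene, another start lay 177 bp downstream. All 78 members with a midpoint 600 or more bases in had a median length of 284.5 bp, and 25 of them (32.1%, 22.7% to 43.0%) were upstream of another start of the gene.

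Whether the 5′ UTR of 1 transcript was promoter of another was then counted. More than 1 coding transcript was annotated for the genes of 1348 members (52.7%). In 931 of these (69.1%, 66.5% to 71.5%) the midpoint was upstream of the start of at least 1 other transcript, and the median distance to that start was 97 bp (90 to 105). It was within 300 bp in 814 (87.4%). The midpoint was 5′ UTR in all coding transcripts for 333 of the 1348 (24.7%) and intron of another for 122 (9.05%). Over all members, including those with a single transcript, 1541 (60.3%) were 5′ UTR in every transcript. The class of these members rests on the outer annotated starts, and no measured start sites were used here. The rule took a midpoint that was 5′ UTR in any 1 transcript, so these shares are partly bound by it. They were not taken for leaders without a member, so whether they stand out is not known.

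Members upstream of another start and members that were 5′ UTR in every transcript had medians of 237 and 233 bp. Site II stood in 20.3% (17.8% to 23.0%) of the 200-bp windows of the former and 16.0% (14.3% to 17.9%) of the latter. The GA repeat (GAGAGA or TCTCTC) stood in 34.8% (31.8% to 37.9%) and 39.8% (37.4% to 42.2%). PHYA, the far-red photoreceptor, was of the first kind. It has 6 coding transcripts, and its member of 393 bp (chr1:3100269-3100661) lay with its midpoint 354 bases into a leader of 890, which is 108 bp upstream of a further start.

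The surroundings of the members were also described. A total of 584 midpoints (22.8%, 21.3% to 24.5%) also lay within 1 kb upstream of a gene on the opposite strand, as in head-to-head pairs. In leaders without a member the middle base did so in 23.2% (4865 of 20940), so this share did not stand out. Another annotated gene covered 109 midpoints (4.26%), most often a protein-coding gene (55) or a lncRNA (43). For 1293 members (50.6%, 48.6% to 52.5%) no other THS lay over the host gene or its 1 kb upstream, so that the leader site was the gene's single THS in that span. A further THS stood in the 1 kb upstream for 684 (26.8%) and over the gene for 820 (32.1%). These shares were not taken for other THSs, so whether they are particular to leader sites is not known.

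The motif content of members was compared with that of other THSs and of leaders with no THS. Windows of 200 bp around the midpoint were searched on both strands for the letters of 10 motifs, and the middle of 15642 leaders that overlapped no THS was searched in the same way. Such a window reaches past both ends of a leader shorter than 200 bases. In the G-box, Site II, W-box core and telo-box the members were nearer to core promoter THSs than to leaders with no THS. The G-box stood in 11.7% of member windows (10.5% to 13.0%), 13.1% of core promoter windows and 7.61% of coding-exon windows, against 2.37% of leaders with no THS. Site II stood in 17.3% of members, 27.3% of core promoter windows and 4.11% of leaders with no THS. The W-box core (TTGACC), bound by WRKY factors, stood in 11.2% of members, 12.8% of core promoter windows and 6.98% of leaders with no THS. The telo-box stood in 3.64% of members, 2.85% of core promoter windows and 9.50% of leaders with no THS, so for this motif the leaders with no THS were the higher group.

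In the GA repeat the members were nearer to leaders with no THS. The GA repeat stood in 37.4% of member windows (95% interval 35.6% to 39.3%) and 42.3% of leaders with no THS, against 18.0% of core promoter and 17.0% of coding-exon windows. It had a strand. TCTCTC on the sense strand occurred 4.23 times per kb of leader in members and GAGAGA 1.61 times, which is close to the 3.96 and 1.84 of leader bases in no THS. The GAA repeat (GAAGAA or TTCTTC) stood in 30.7% of members, 51.0% of leaders with no THS and 22.8% of core promoter windows. The TATA box letters (TATAAA) stood in 30.5% of members, 32.0% of core promoter windows, 34.0% of leaders with no THS and 8.51% of coding-exon windows. The GCC-box (GCCGCC), the I-box and the evening element stood in 2.90%, 12.5% and 4.03% of members, against 1.68%, 11.5% and 4.18% of core promoter windows and 4.26%, 10.0% and 2.90% of leaders with no THS. The mean GC content was 37.0% in member windows, 35.3% in core promoter, 36.4% in no-THS leader and 45.2% in coding-exon windows.

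**Figure D4:**
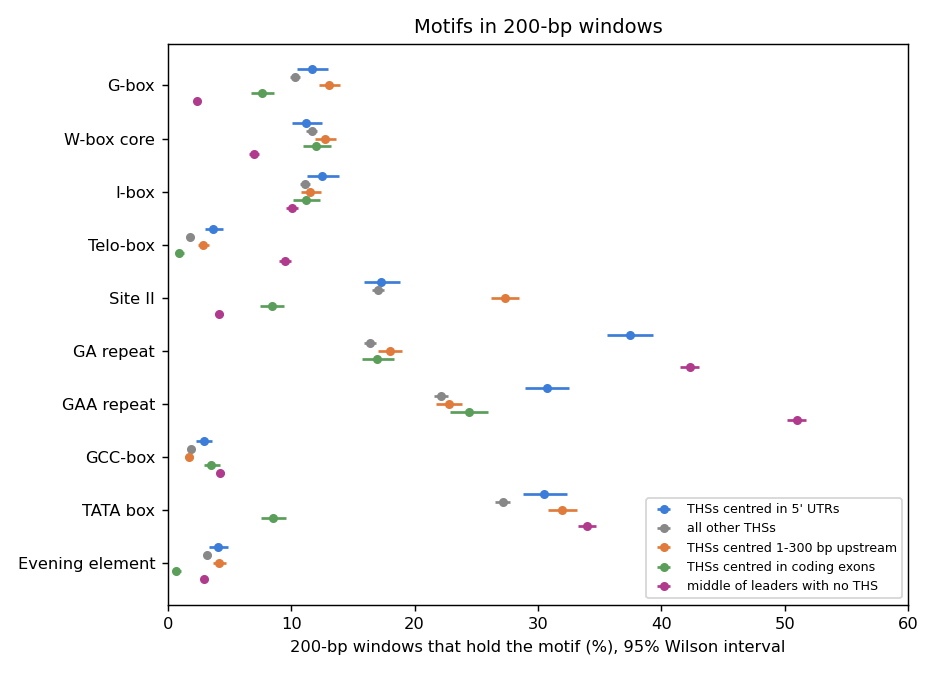
Points give the percentage of 200-bp windows that hold each of 10 motifs on either strand, with 95% Wilson intervals, for THSs centred in 5′ UTRs, all other THSs, core promoter THSs (1 to 300 bp upstream), coding-exon THSs and the middle of leaders with no THS. For the G-box and Site II the 5′ UTR points (11.7% and 17.3%) lie far above the leaders with no THS (2.37% and 4.11%), and for the GA repeat (37.4%) far above the other THSs.

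Since members crowd near the start, leader bases were also compared at equal distance from it. The G-box occurred 0.673 times per kb in the first 100 leader bases inside members and 0.120 times in leader bases in no THS. Between 200 and 300 bases these values were 0.788 and 0.0741, and between 300 and 600 bases 0.725 and 0.0897. Site II occurred 1.24 times per kb in the first 100 bases of members and 0.703 times between 300 and 600, against 0.217 and 0.0707. The GAA repeat went the other way at each distance, with 2.01 against 4.77 per kb in the first 100 bases and 3.25 against 4.98 between 300 and 600. The GA repeat changed order. It was at 4.002 against 5.63 per kb in the first 100 bases and 6.79 against 4.19 between 300 and 600.

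Members clear of the transcript start held the same motifs as those that span it, in other proportions. The G-box stood in 13.1% (11.0% to 15.5%) of the windows of the former and 11.0% (9.57% to 12.6%) of the latter, Site II in 13.4% (11.2% to 15.8%) and 19.3% (17.5% to 21.2%), and the GA repeat in 41.2% (38.0% to 44.6%) and 35.5% (33.3% to 37.8%). Both kinds were above the leaders with no THS in the G-box and Site II.

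As the leader carries uORFs, ATG triplets on the sense strand were counted. Leader bases in members held 12.7 ATG per kb (12.4 to 13.0, 6271 in all) and leader bases in no THS 8.78 per kb (8.69 to 8.87). In the first 100 leader bases the values were 13.5 and 8.63, between 100 and 200 bases 11.4 and 6.80, between 200 and 300 bases 10.0 and 7.46, and between 300 and 600 bases 11.6 and 10.6. In leaders of 100 to below 200 bases at least 1 ATG stood in 70.2% for genes with a member and in 53.7% for genes without. From 500 to below 1000 bases the shares were 99.0% and 98.9%. These leaders were those of each gene's transcript with the most upstream start, which need not hold the member. Genes in which this leader fell outside the length class were left out. From 500 to below 1000 bases 397 leaders were thus counted for 544 genes with a member. Base composition differed less, with 30.7% T and 21.2% C in members against 32.6% and 20.4%.

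The genes whose translation is known to be controlled through the leader were looked at by name. Of 25 genes regulated by uORFs, 3 held a member (12%, 4.17% to 30.0%). VTC5, a GDP-L-galactose phosphorylase of vitamin C synthesis, had 253 bp open at the start (chr5:22368900-22369152). ARF3, an auxin response factor also named ETTIN, had 136 bp at the start (chr2:14328846-14328981). NIP5;1, a boric acid channel, had 189 bp clear of the start (chr4:6435176-6435364), with the midpoint 126 bases into a leader of 886. The leader of NIP5;1 held 10 ATG triplets, of which 5 lay in the member. Its minimal ORFs, an ATG directly followed by a stop codon, at which boron makes ribosomes stall, lay after 574 and 764 leader bases and outside any THS. They are shown with the ATG and stop codon in capitals.
NIP5;1, first (chr4:6434805-6434834, minus strand): atctttcaaagcATGTAAatttaagtccta
NIP5;1, second (chr4:6434615-6434644, minus strand): aaatttcaaatcATGTAAatttcgtctcta

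Among 19 genes known for a leader intron, MHX, a magnesium and proton exchanger of the vacuole, was the single one with a member, of 189 bp (chr2:19527454-19527642). It held a G-box after 53 leader bases and an I-box after 45. For both lists the leaders were long, with medians of 541 and 364 bases, and the shares of genes in the same leader-length classes would have given 21.2% and 16.4%, against 12% (4.17% to 30.0%) and 5.26% (0.935% to 24.6%) found, so both intervals include the former.

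Clock and light signalling genes held a member in 9 of 33 cases (27.3%, 15.1% to 44.2%), against 19.2% from their leader-length classes, so the interval includes the latter. In the clock, ELF3 of the evening complex had 245 bp, GI, which links the clock to flowering, 156 bp, and CHE, a TCP repressor of CCA1, 208 bp. GI and ELF3 were open at the start, with midpoints after 9 and 20 leader bases, and CHE in the middle of its leader, after 217 of 427. Among photoreceptors, PHYA was joined by CRY1, with 144 bp at the start, and CRY2, with 410 bp, both blue-light receptors. PIF1, PIF4 and PIF5, which act below the phytochromes, held members as well. That of PIF4 was the longest of these genes, with 576 bp (chr2:17886027-17886602) and 7 ATG in it, and that of PIF5 had 445 bp (chr3:21830419-21830863). PIF1 had a pair, of 462 and 147 bp and 9 bp apart.

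Of 26 genes of abscisic acid and jasmonate signalling, 5 held a member (19.2%, 8.51% to 37.9%), against 16.0% from their leader-length classes, which lies inside the interval. They were the phosphatases ABI1 (172 bp) and HAI1 (149 bp), the repressors JAZ1 (104 bp) and JAZ3 (139 bp), and MYC2 (382 bp). None spanned the transcript start, and MYC2's reached its coding start. JAZ3's stood 529 bases into a leader of 1025. The G-box was in 3 of these open leaders, those of JAZ1, MYC2 and HAI1, after 164, 179 and 121 leader bases.

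Of 19 genes that were Polycomb genes or loci the study examined, among them PLT5, AG and SOC1, 2 held a member (10.5%, 2.94% to 31.4%), against 16.8% from their leader-length classes. CLF, the histone methyltransferase mutated in clf28swn7, had 230 bp at the start (chr2:9955041-9955270) with a telo-box after 32 leader bases. BMI1A, mutated in bmi1abc, had 71 bp (chr2:13025959-13026029). Whether these were open in WT or in a mutant cannot be told from the merged list. Over the 5 lists, 20 genes held 21 members, of which 11 spanned the start.

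The larger gene groups, taken by the product text of the annotation, differed in how often their leaders held a member. The widest distance from the value of the length classes was that of photosystem and light-harvesting genes, with 18 of 66 (27.3%, 18.0% to 39.0%) although their leaders were short, with a median of 174.5 bases, and their length classes would have given 8.16%. Ribosomal protein genes, with a median leader of 127.5 bases, had 36 of 328 (11.0%, 8.03% to 14.8%) against 7.09%, which is below the interval. RNA-binding proteins had 34 of 225 (15.1%) against 12.2% and transcription factors 53 of 326 (16.3%) against 14.5%, and both intervals included the value from length. Protein kinases, at 104 of 752 (13.8%), zinc finger proteins, at 55 of 445 (12.4%), cytochromes P450, at 16 of 215 (7.44%), heat shock proteins and chaperones, at 27 of 225 (12%), and pentatricopeptide repeat proteins, at 10 of 220 (4.55%), likewise had intervals that included it. Ubiquitin and F-box genes had 42 of 518 (8.11%, 6.05% to 10.8%) against 10.5%, also inside the interval. The gene families hold paralogs, and the intervals do not allow for that.

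**Figure D5:**
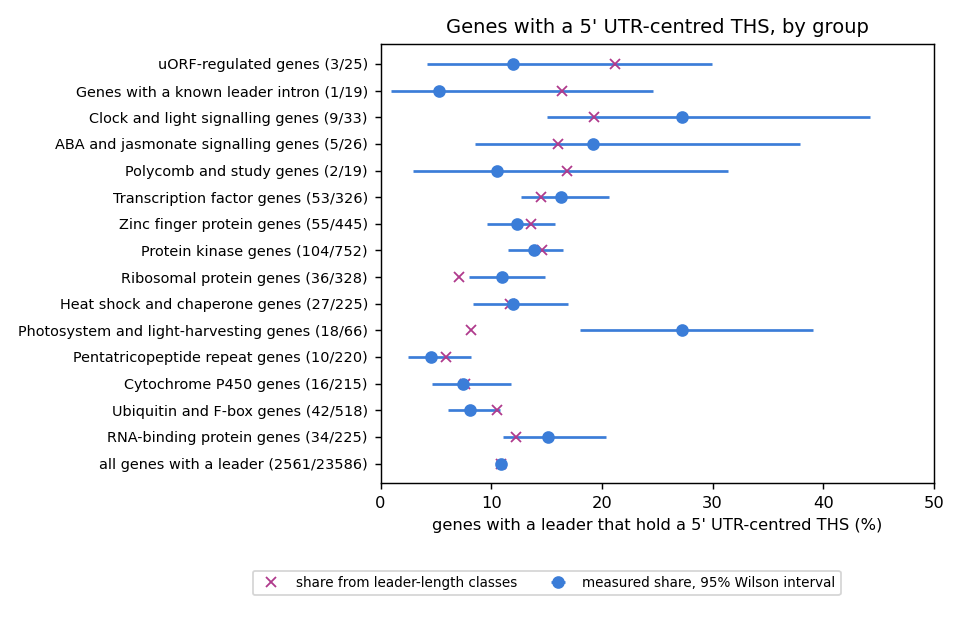
Points give the percentage of genes with a leader that hold a 5′ UTR-centred THS, with 95% Wilson intervals, for 5 lists of named genes, 10 groups by product text and all genes, and crosses give the percentage that the leader lengths of the group would give. The photosystem and light-harvesting group (27.3%) has the widest distance from its cross (8.16%), and the intervals of all other groups but the ribosomal one include theirs.

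The 18 photosystem and light-harvesting members covered both photosystems and their antennae. Of photosystem II there were PSB27 (648 bp), PSBP-1 (385 bp) and PSBQA (440 bp), of which PSBP-1 and PSBQA belong to the oxygen-evolving complex, PSBW (305 bp) and PSBY (223 bp). Of photosystem I there were PSAD-1 (461 bp), PSAH-1 (178 bp), PSAN (306 bp) and AT1G49975 (367 bp). Antenna proteins were LHCA3 (435 bp), Lhca6 (179 bp), LHCB2.1 (447 bp), LHCB3 (177 bp), LHCB4.1 (255 bp) and LHCB4.3 (446 bp). The group was completed by NPQ4 (453 bp), the sensor of excess light also known as PsbS, and by ELIP1 (169 bp) and LIL3:1 (231 bp). Their midpoints stood between 0 and 130 leader bases after the start.

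The motifs of these genes were those shown at the outset. In the 200-bp windows of the 18 photosystem members the G-box stood in 9 (50%, 29.0% to 71.0%) and the I-box in 9, against 11.7% and 12.5% of all members. Site II and the telo-box stood in none (0% to 17.6%). That interval includes their shares in all members, 17.3% and 3.64%. In the part of the member that is leader, a G-box or I-box was found in 13 genes and both in 4, PSB27, PSBP-1, LHCA3 and PSAH-1. PSB27 also held Site II in its open leader, outside the window. Photosystem genes without a member were searched in the 200-bp window around the middle of the leader. It held a G-box in 13 of 47 (27.7%, 16.9% to 41.8%) and an I-box in 17 (36.2%, 24.0% to 50.5%). These motifs were thus also common around leaders of the group that held no member. The median leader of the group was 174.5 bases, so such windows often reach past it and a match need not lie in the leader.

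In the 36 ribosomal members Site II stood in 25 windows (69.4%, 53.1% to 82.0%) and the telo-box in 14 (38.9%, 24.8% to 55.1%), against 17.3% and 3.64% of all members. The G-box stood in 1 and the I-box in 7 (19.4%, 9.75% to 35.0%), and the interval for the I-box overlapped that of the photosystem members. The leader part of the member held Site II in 22 genes, after a median of 72.5 leader bases, and the telo-box in 14, and 9 genes held both. The group includes plastid ribosomal proteins such as PRPL11. In ribosomal genes without a member the window around the middle of the leader held Site II in 111 of 292 (38.0%, 32.6% to 43.7%). It held the telo-box in 167 (57.2%, 51.5% to 62.7%). The intervals did not overlap for Site II and overlapped for the telo-box. Member windows lay on the midpoint and the others on the middle of the leader, so they also differ in place. With a median leader of 127.5 bases in this group, windows of 200 bp often reach past the leader.

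Other groups differed in Site II as well. It stood in 12 of 34 windows of RNA-binding protein members (35.3%, 21.5% to 52.1%) and 14 of 43 of ubiquitin and F-box members (32.6%, 20.5% to 47.5%), but in 3 of 104 of protein kinase members (2.88%, 0.986% to 8.14%) and 5 of 53 of transcription factor members (9.43%, 4.10% to 20.3%). Protein kinase members held the G-box in 14 of 104 (13.5%), near the 11.7% of all members.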

How the data were processed

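ATAC-seq was performed by the authors on seedlings of 6 genotypes with 2 replicates each. Per the labels and the study's methods, reads were trimmed (Trimmomatic), mapped with bowtie to TAIR10 without organelle genomes, and freed of duplicates (Picard) and of reads in regions of excessive coverage. Peaks were called with MACS2 per replicate (extension size 200 bp), intersected between replicates and merged over genotypes. The study also describes a last filter that removed THSs of low signal, and it reports fewer consensus THSs than the 23226 used here. The list used here is therefore larger than the filtered set, may hold weak regions, and does not mark which regions passed. The deposited file holds coordinates only (chromosome, start, end), with no count, score or signal, so the depth per sample is not given. A merge keeps a region open in any 1 genotype, intersection leaves pieces shorter than 200 bp, and a midpoint class depends on annotated starts.

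The RefSeq annotation of TAIR10.1 was used. Every region lay within its chromosome lengths. Midpoints, leader bases and motif letters were counted in Python 3.11.15 (NumPy 2.4.6, SciPy 1.17.1, matplotlib 3.10.9). Shares have 95% Wilson intervals, medians order-statistic intervals and rates exact Poisson intervals. No test was run, since the list has no samples to compare. The share expected from leader length is the mean, over the genes of a group, of the share in their length class among all genes. The assignment of regions to leaders was checked on a made-up annotation with known answers.

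Genes were named by a rule: members in the 5 locus lists, the 10 longest, the 10 farthest from the start, genes with 3 or more members, and those with the most matches to a motif. Photosystem and ribosomal genes outside it were named after their values were seen. The members and lists were chosen with earlier results of these data known. Alternatives were regions of at least 200 bp, merging of neighbours under 150 bp apart, another rule of assignment, other transcripts, other windows and leaving out each chromosome.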

Additional observations from a re-analysis of the deposited data

How the results depend on the processing

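No paired analysis was possible because the merged list has no sample columns, and for the same reason no replicate could be left out. Of 364 alternative values over 34 results, 300 stayed within the interval of the reported value, or within 1.5 times for counts, and 64 moved. Leaving out regions under 200 bp gave 1577 members of median length 306 bp and median leader 364 bases, of which 75.0% spanned the start, 33.9% had a second THS at the host gene or within 1 kb before it (49.4% of all members), 25.2% lay upstream of another gene (23.4% of all members), 30.9% of leader bases were T, and 10 of the named list genes held a member in place of 20. Without chromosome 2 that number was 13, since the list genes on that chromosome could then hold no member. Regions under 200 bp were left out as neighbours too, which by itself can lower the share with a second THS. With all regions kept and upstream limits of 500 and 2000 bp, 41.0% and 59.9% had such a second THS, and 15.3% and 41.1% lay upstream of another gene. In windows of 100 and 400 bp the G-box stood in 7.32% and 15.6%. If most of a region's bases had to be leader, 92.9% lay in the first exon, 56.3% were 5′ UTR in every transcript and 27.0% lay upstream of another gene. By that rule a midpoint could lie in no leader exon. Such regions counted as outside the first exon and as not 5′ UTR in every transcript. The 92.9% therefore does not show how many midpoints lay in later leader exons. With the first transcript of each gene alone, 99.0% lay in the first exon, 100% were 5′ UTR in every transcript by construction, and the median leader was 305 bases. With the most downstream start, 99.1% lay in the first exon and 70.2% spanned the start. The depth of the reads limits which leaders can appear and is not known from the list.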
